A study of Mus musculus with 12 samples.

Results

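Cells take up, store, export and sense iron with a small set of genes, and 10 of them were followed here in AML12 cells, a line of mouse hepatocytes immortalized from a mouse that carries a transforming growth factor alpha transgene. The genes were Tfrc, Slc11a2 and Steap3 for uptake, Fth1, Ftl1 and Ncoa4 for storage, Slc40a1 for export, Ireb2 and Aco1 for sensing, and Slc25a37 for delivery to the mitochondrion. They were chosen by symbol, and all 10 were found among the 24824 genes of the expression table. A mean of 1 FPKM, needed for a test, was reached by 9 of them and missed by Slc40a1.

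Group A was left untreated. Group B received 300 µM CuCl2 with 40 nM elesclomol (ES), a copper ionophore, together called Cu/ES. Group C received the same Cu/ES with 1000 µM taurocholic acid (TCA), a conjugated bile acid, and group D received 1000 µM TCA without Cu/ES. Exposure lasted 24 h and each group had 3 libraries of polyadenylated RNA from cells that the labels give as wild type. No group received CuCl2 or ES alone, so the effects of the metal and of its ionophore cannot be told apart. The growth medium of every group held serum and a supplement of insulin, transferrin and selenium. The labels do not say whether the 3 libraries of a group came from separate cultures, so every p-value below measures the spread between these libraries, which may be technical.

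Transferrin-bound iron enters cells through the transferrin receptor, is reduced in the endosome and reaches the cytosol through a divalent metal transporter, where it is used, stored inside ferritin shells or exported by ferroportin. Hepatocytes are the main iron store of the body. A pair of RNA-binding proteins, the iron regulatory proteins, bind hairpins called iron-responsive elements when cytosolic iron is low. Elements in a 5' untranslated region then block translation, and elements in a 3' untranslated region protect the mRNA from decay, so that the same sensor acts on the protein of one gene and on the mRNA of another. RNA sequencing measures the second kind of control and not the first.

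The hairpins of the member genes are shown because they set which members are known to be read out at the mRNA level. A pattern of a 6-base loop, CAGTGN or CAGAGN, over a 5-pair upper stem, an unpaired C and a 6-pair lower stem was searched in GENCODE M21 transcripts (build GRCm38), with G-U pairs counted as pairs. Positions are those of GRCm38, and capitals mark the loop.
Tfrc, chr16:32631160-32631188, plus strand, 3' UTR in exon 19 of 19: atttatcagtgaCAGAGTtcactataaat
Tfrc, chr16:32631219-32631247, plus strand, 3' UTR in exon 19 of 19: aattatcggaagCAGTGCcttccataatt
Tfrc, chr16:32631598-32631626, plus strand, 3' UTR in exon 19 of 19: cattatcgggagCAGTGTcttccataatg
Tfrc, chr16:32631663-32631691, plus strand, 3' UTR in exon 19 of 19: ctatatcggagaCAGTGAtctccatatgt
Tfrc, chr16:32631710-32631738, plus strand, 3' UTR in exon 19 of 19: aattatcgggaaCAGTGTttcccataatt
Slc11a2, chr15:100395153-100395181, minus strand, 3' UTR in exon 16 of 16: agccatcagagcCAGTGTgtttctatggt
Fth1, chr19:9982732-9982760, plus strand, 5' UTR in exon 1 of 4: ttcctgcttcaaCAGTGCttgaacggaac
Ftl1, chr7:45459779-45459807, minus strand, 5' UTR in exon 1 of 4: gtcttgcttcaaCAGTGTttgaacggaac
Slc40a1, chr1:45925465-45925493, minus strand, 5' UTR in exon 1 of 8: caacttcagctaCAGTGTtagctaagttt

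Tfrc held 5 such hairpins and the other 4 genes held 1 each. With all 5 upper pairs and at least 4 lower pairs required, the pattern occurred in 97 of 21877 protein-coding genes (0.443%), among them Tfrc, Fth1, Ftl1 and Slc40a1. The Slc11a2 hairpin formed 4 of 5 upper and 2 of 6 lower pairs, and under that looser requirement 14.9% of genes held a match. It lies in the transcript Slc11a2-205, one of several that the gene makes, and the gene-level values below do not separate them. A match describes letters and not a site shown to be bound in these cells.

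The authors deposited FPKM, the fragments of a gene scaled by its length and by the library total. Library totals recovered from the spacing of these values were 38298857 to 39108520 reads for group A, 30773752 to 32002324 for B, 29115011 to 34912748 for C and 39444420 to 39782142 for D. Cu/ES moved the whole table: over the 10615 genes tested the median log2 fold change was -1.10 in B vs. A and -1.13 in C vs. D. It was -0.03 in C vs. B and -0.01 in D vs. A. Scaling the libraries by the median ratio of their genes instead brought the B vs. A median to 0.01 and turned the split of genes past both thresholds from 1070 higher and 5622 lower to 2858 higher and 2609 lower. For C vs. D the same scaling turned 1189 higher and 5662 lower into 2955 and 2660. Member changes are therefore also given relative to the median of all genes. In bulk RNA, fewer cells of a kind and less RNA per cell cannot be told apart.

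Markers of the labelled cell type were partly absent. Alb, which encodes the main plasma protein of hepatocytes, was at 0 FPKM in groups A, C and D and at a mean of 0.0463 in group B, and Apob and Hnf4a stayed at or below 0.0304 FPKM in every library. Of 14 hepatocyte markers 11 could be analysed, and 4 or 5 reached a mean FPKM of 1 in each group, with summed levels of 603 to 657 FPKM for group A, 240 to 291 for B, 176 to 212 for C and 707 to 724 for D, carried by the keratins Krt8 and Krt18. Other lists moved with Cu/ES as well. The summed level of 6 stellate cell and fibroblast markers was 140 to 206 FPKM in group A. It was 3.44 to 5.76 in B, 1.27 to 2.45 in C and 121 to 183 in D. Col3a1 carried most of it in A and D, at means of 138 and 126 FPKM. From A to B, mean Acta2 (0.00604 to 0.360) and Col1a2 (0.0116 to 0.0508) rose at very low levels, and the rest of the list went down. For 4 endothelial markers the summed level was 0.922 to 1.16 in A, 6.80 to 10.5 in B, 16.8 to 19.8 in C and 0.865 to 1.25 in D, mostly Pecam1. For 5 cholangiocyte markers, chiefly Spp1 and Krt19, it was 920 to 1004 in A, 1240 to 1404 in B, 735 to 950 in C and 743 to 790 in D. These markers did not move together from A to B. Mean Spp1 went from 673 to 1190 FPKM and Sox9 from 10.6 to 50.9. Krt19 went from 268 to 77.3 and Epcam from 0.537 to 0.0715, and Krt7 was at most 0.113 in any library. For 4 macrophage markers the summed level was 72.5 to 102 in A, 24.6 to 29.1 in B, 24.1 to 36.8 in C and 25.5 to 37.0 in D, almost wholly Cd68, with Adgre1 at 0 in every group but C. Erythroid markers summed to at most 2.19 FPKM in any library. The part of these shifts in the iron gene results was not tested.

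Tfrc encodes the transferrin receptor, and its mRNA rose under Cu/ES and rose again when TCA was added. It stood at 21.60, 22.51 and 20.99 FPKM in group A, at 29.23, 29.23 and 26.61 in group B, at 39.24, 33.68 and 37.17 in group C and at 22.03, 28.96 and 21.88 in group D. Every library of group C was above every library of group B, which in turn lay above group A, while 1 library of group D stood well above its other two. The log2 fold change, taken on FPKM + 1 and so too small for low genes, was 0.37 ± 0.10 (SE) in B vs. A, at an adjusted p of 0.00257 (limma, Benjamini-Hochberg over all genes tested), a rise of 1.47 relative to the median gene. Scaling to TPM, which divides by the FPKM sum of each library, took this value to 0.01 with an adjusted p of 0.915, whereas median-ratio scaling took it to 1.66. In C vs. B the log2 fold change was 0.36 ± 0.10 (adjusted p = 0.009), and in D vs. A it was 0.14 ± 0.10 and did not pass (adjusted p = 0.321).

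Slc11a2 encodes the divalent metal transporter that moves iron out of the endosome. Its levels were 10.61, 10.25 and 11.41 FPKM in group A, 3.60, 3.43 and 4.19 in group B, 8.46, 5.35 and 8.25 in group C, and 12.01, 12.57 and 12.84 in group D. The 4 groups did not overlap anywhere in their order, which ran D, A, C and B from high to low. It fell in B vs. A by 1.31 on the log2 scale (SE 0.13, adjusted p = 1.71e-07), which was 0.21 below the median of all genes. With median-ratio scaling the same difference was -0.16 and did not pass (adjusted p = 0.226), and with quantile normalization it was 0.00 (adjusted p = 0.974). Adding TCA to Cu/ES brought a rise of 0.80 ± 0.13 (adjusted p = 2.32e-04), larger than that of 97.4% of the genes tested, with a ratio of mean FPKM of 1.97. This rise passed under every alternative tried, with values from 0.69 to 1.01 outside the leave-one-out fits and from 0.70 to 0.98 within them. TCA without Cu/ES gave 0.20 ± 0.13 (adjusted p = 0.298).

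Steap3, the endosomal ferrireductase, was the one uptake gene that fell under TCA alone. Levels were 2.89, 2.74 and 3.37 FPKM in group A, 0.181, 0.245 and 0.323 in group B, 0.362, 0.604 and 0.392 in group C, and 1.69, 1.76 and 1.71 in group D. Group B values rested on 19 to 33 recovered reads per library and group C values on 35 to 70, against 354 to 438 in group A. All 4 groups stood apart from each other. The log2 fold change was -1.68 ± 0.09 in B vs. A (adjusted p = 2.01e-10) and -0.55 ± 0.09 in D vs. A (adjusted p = 0.00116), and the second was lower than that of all but 2.6% of the genes tested. In C vs. B it was 0.22 ± 0.09 and missed the threshold (adjusted p = 0.0697). That last value depended on the pseudocount, which weighs on a gene this low: with 0.1 in place of 1 the difference was 0.66 (adjusted p = 0.0191), and with median-ratio scaling 0.32 (adjusted p = 0.0235).

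**Figure D1:**
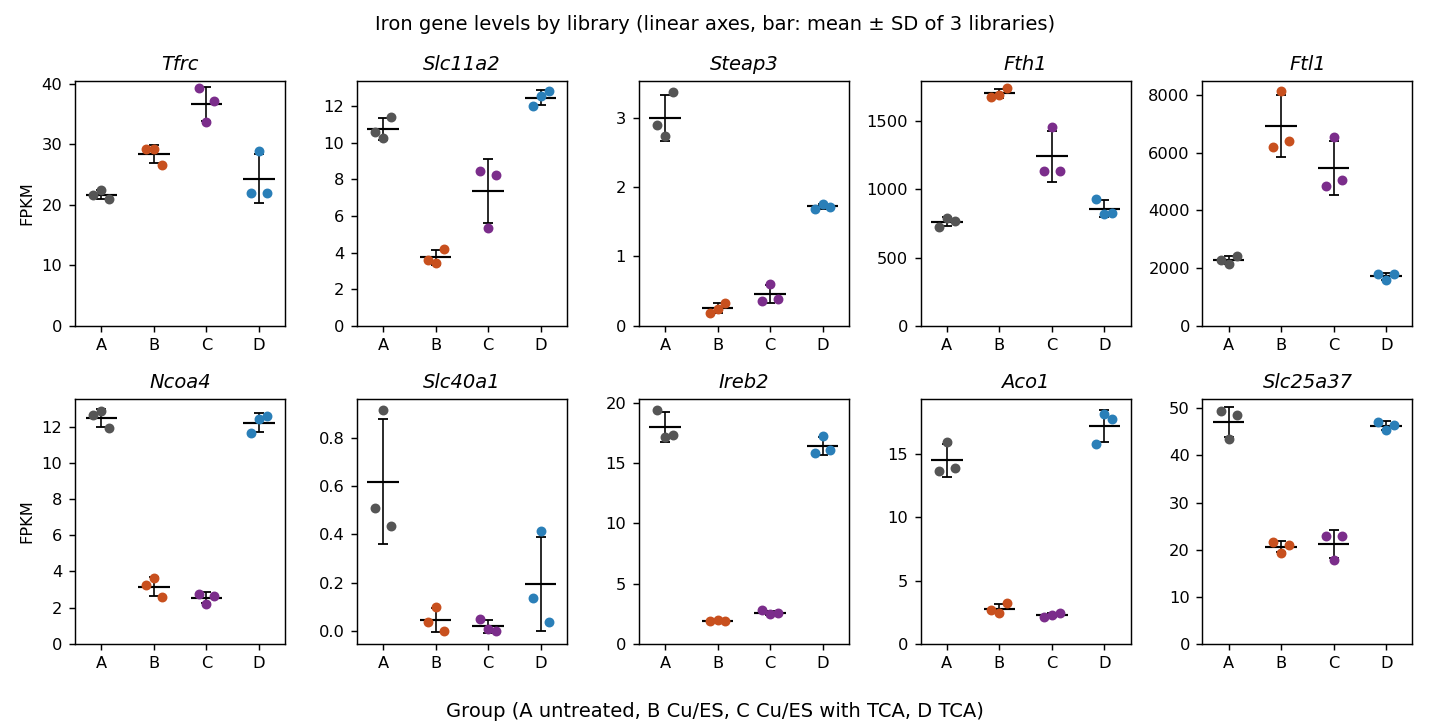
FPKM (linear axes that start at 0 apart from a small margin) of each of the 10 iron genes in the 3 libraries of groups A (untreated), B (Cu/ES), C (Cu/ES with TCA) and D (TCA), with the mean and SD as bars. Fth1, Ftl1 and Tfrc sit higher in group B than in group A, the other 7 sit lower, and Slc11a2 climbs from 3.43 to 4.19 FPKM in group B to 5.35 to 8.46 in group C.

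Ferritin mRNAs rose strongly under Cu/ES. Fth1, the heavy chain with ferroxidase activity, stood at 727, 792 and 770 FPKM in group A, at 1676, 1692 and 1744 in group B, at 1132, 1460 and 1135 in group C and at 928, 818 and 826 in group D. The order B, C, D and A held without overlap between neighbours. Fth1 rose by 1.16 ± 0.09 on the log2 scale in B vs. A (adjusted p = 1.51e-08), a ratio of 2.23 and 2.26 above the median gene. The size of this rise depended on the scaling, at 0.79 with TPM, 2.50 with median-ratio scaling and 0.13 with quantile normalization (adjusted p = 0.0101), all of them called. In C vs. B it fell by 0.47 (SE 0.09, adjusted p = 0.00102), and this drop kept its call in every alternative. The D vs. A value was 0.17 ± 0.09 (adjusted p = 0.214).

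Ftl1 encodes the ferritin light chain, which favours the growth of the iron core, and was the most abundant member. It reached 2282, 2149 and 2419 FPKM in group A, 6192, 8166 and 6425 in group B, 4834, 6562 and 5062 in group C, and 1795, 1579 and 1788 in group D. Groups B and C overlapped, and both lay far above groups A and D. The rise in B vs. A was 1.59 ± 0.12 (adjusted p = 1.10e-08), a ratio of 3.03 and 2.69 above the median gene. Quantile normalization, which gives the top ranks the same value in every library, left 0.00 of it (adjusted p = 1). Ftl1 was lower in C vs. B by a log2 difference of -0.34 ± 0.12 (adjusted p = 0.0375), but the call was lost without B library 2 (-0.21, adjusted p = 0.174), without C library 1 (-0.25, adjusted p = 0.147) or C library 3 (-0.29, adjusted p = 0.129), and with median-ratio scaling (-0.28, adjusted p = 0.147). In D vs. A the log2 fold change of Ftl1 was -0.41 ± 0.12 (adjusted p = 0.0296). That call too was lost when any of A library 1, A library 3 or the 3 D libraries was left out, at values from -0.44 to -0.35 and adjusted p-values from 0.0552 to 0.101, and with median-ratio scaling (adjusted p = 0.0906).

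Per mean FPKM, Ftl1 ranked 7 among all genes in untreated cells, 6 with Cu/ES, 8 with Cu/ES and TCA, and 13 with TCA alone. Fth1 and Ftl1 together took 0.293 ± 0.0124% of the recovered reads of group A (mean ± SD, n = 3) and 0.833 ± 0.104% of those of group B. The share was 0.649 ± 0.109% in cells given Cu/ES with TCA, and 0.248 ± 0.0160% with TCA alone. Processed copies of ferritin genes are common in mammalian genomes, and reads that fit several copies may be lost or misplaced. The listed copy Ftl1-ps2 held at most 3 reads in a library. How the counting treated such reads, and whether it used strand, is not given in the sources used here, and Ftl1, Slc11a2 and Slc25a37 each overlap a gene annotated on the opposite strand.

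Ncoa4 encodes the receptor that carries ferritin to the lysosome for iron release. It stood at 12.7, 12.9 and 11.9 FPKM in group A, at 3.23, 3.66 and 2.60 in group B, at 2.76, 2.22 and 2.67 in group C and at 11.6, 12.4 and 12.6 in group D. The libraries with Cu/ES and those without were far apart, and within each of those pairs of groups they overlapped. Ncoa4 fell by 1.70 in B vs. A on the log2 scale (SE 0.10, adjusted p = 4.21e-10), 0.60 below the median gene, and the median-ratio value was -0.56 (adjusted p = 1.11e-04). It gave -0.22 ± 0.10 in C vs. B (adjusted p = 0.0821) and -0.03 ± 0.10 in D vs. A (adjusted p = 0.872).

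Ratios between genes of one library depend on the scaling of that library only through the 1 added to each value. The mean log2 ratio of Ncoa4 to Fth1, on FPKM + 1, was -5.82 ± 0.08 (SD, n = 3) in group A and -8.69 ± 0.21 in group B, a difference of -2.86 that became -3.12 with a pseudocount of 0.1. Quantile normalization is no such scaling and shrank both sides of this ratio, to -0.42 for Ncoa4 and 0.13 for Fth1 in B vs. A. Fth1 to Ftl1 stood at -1.58 ± 0.12 in untreated cells, at -2.01 ± 0.22 with Cu/ES, at -2.14 ± 0.04 with Cu/ES and TCA, and at -0.95, -0.95 and -1.11 in the libraries given TCA alone, so the share of heavy chain was highest with TCA alone and lowest in the groups with Cu/ES. Group D lay 0.58 above group A without overlap, and groups C and B overlapped. Over the 20 comparisons of 5 ratios the exact permutation test gave p = 0.1 wherever groups stood apart, the smallest that 3 against 3 libraries allow, and 0.125 after Benjamini-Hochberg adjustment, so none passed.

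Slc40a1 encodes ferroportin, the only known iron exporter of mammalian cells, and it was barely detected. Its values were 0.509, 0.914 and 0.433 FPKM in group A, 0.0362, 0.0986 and 0 in group B, 0.0492, 0.00821 and 0 in group C, and 0.137, 0.414 and 0.0363 in group D. These are 59 to 124 reads per library of group A, 0 to 11 of group B, 0 to 5 of group C and 5 to 57 of group D. Every group A library was above every library of groups B, C and D, and groups B, C and D overlapped. The 2 libraries with no read allow up to 0.0280 FPKM in group B and 0.0266 in group C at a limit of 3 reads, which covers counting error only. The ratio of mean FPKM was 0.0726 in B vs. A and 0.317 in D vs. A (exact permutation p = 0.1 for each, the smallest possible). In the fit without a filter on low values the log2 difference was -0.62 ± 0.12 in B vs. A (adjusted p = 0.00137), which the pseudocount of 1 keeps small, and -0.44 ± 0.12 in D vs. A (adjusted p = 0.0591).

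Both iron regulatory protein genes fell under Cu/ES. Ireb2, which encodes the iron regulatory protein that is degraded when iron is plentiful, stood at 19.41, 17.13 and 17.35 FPKM in group A, at 1.91, 1.99 and 1.86 in group B, at 2.77, 2.45 and 2.53 in group C and at 15.86, 17.22 and 16.05 in group D. Groups B and C were narrow and separate, and groups A and D overlapped. Its fall in B vs. A was the deepest of the members tested on the log2(FPKM + 1) scale (the ratio of mean FPKM, 0.107, was above the 0.0831 of Steap3), with a log2 fold change of -2.70 ± 0.08 (adjusted p = 4.12e-13), 1.60 below the median gene and lower than all but 8.8% of the genes tested. Median-ratio scaling gave -1.59 (adjusted p = 1.15e-10). Ireb2 rose in C vs. B by 0.29 ± 0.08 (adjusted p = 0.00638), a call kept in every alternative, and gave -0.12 ± 0.08 in D vs. A (adjusted p = 0.268).

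Aco1 encodes cytosolic aconitase, which becomes an iron regulatory protein when it loses its iron-sulfur cluster. Levels were 13.64, 15.96 and 13.87 FPKM in group A, 2.71, 2.47 and 3.19 in group B, 2.12, 2.25 and 2.46 in group C, and 15.77, 18.15 and 17.75 in group D. Group C lay just below group B without overlap, and groups A and D overlapped by a narrow margin. Aco1 fell by 2.03 in B vs. A (SE 0.09, adjusted p = 3.74e-11), 0.93 below the median gene, and median-ratio scaling gave -0.90 (adjusted p = 8.67e-07). It gave -0.21 ± 0.09 in C vs. B (adjusted p = 0.0931) and 0.24 ± 0.09 in D vs. A (adjusted p = 0.0895), the latter past the threshold with limma-voom on recovered reads (0.25, adjusted p = 0.0376). Within libraries the log2 ratio of Aco1 to Ireb2 was -0.29 ± 0.19 in untreated cells and 0.37 ± 0.17 with Cu/ES, and it was -0.13 ± 0.13 with Cu/ES and TCA and 0.07 ± 0.07 with TCA alone. The log2 ratio was thus below 0, towards Ireb2, in every library of groups A and C and above 0, towards Aco1, in every library of group B. In group D it was near even, at -0.01, 0.07 and 0.14. The groups did not overlap in any of the 4 comparisons (exact permutation p = 0.1, adjusted p = 0.125).

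Slc25a37 encodes a mitoferrin, an iron carrier of the inner mitochondrial membrane. It measured 49.34, 43.52 and 48.59 FPKM in group A, 21.67, 19.29 and 21.04 in group B, 22.99, 17.73 and 22.92 in group C, and 47.07, 45.32 and 46.56 in group D. Libraries fell into a high pair of groups without Cu/ES and a low pair with it. The log2 fold change in B vs. A was -1.15 ± 0.09 (adjusted p = 1.87e-08), only 0.05 below the median gene, and with median-ratio scaling it turned to 0.15 (adjusted p = 0.103). Of all members, Slc25a37 thus moved most nearly with the table as a whole. Neither TCA comparison passed, with 0.03 ± 0.09 in C vs. B (adjusted p = 0.836) and -0.02 ± 0.09 in D vs. A (adjusted p = 0.895).

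**Figure D2:**
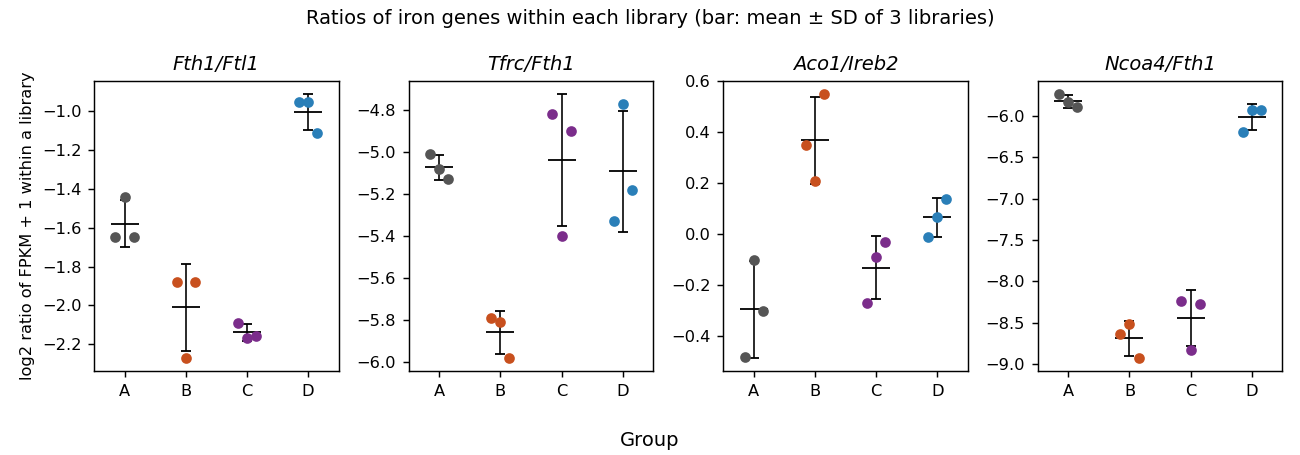
Log2 ratio of FPKM + 1 for pairs of iron genes within each library, in groups A (untreated), B (Cu/ES), C (Cu/ES with TCA) and D (TCA), with the mean and SD of 3 libraries as bars and an axis of its own in each panel. Tfrc to Fth1 drops to -5.86 in group B and returns to -5.04 in group C, with groups A and D at -5.07 and -5.09.

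Among the 9 members tested in B vs. A, each role with more than 1 member tested held a gene that fell, and uptake and storage also held genes that rose. The number that rose was 3 (Tfrc, Fth1 and Ftl1), where 20.1% of all genes tested rose, and 6 fell, where 72.0% fell. Past an absolute log2 fold change of 1 as well were 2 that rose (10.1% of all genes) and 6 that fell (53.0%). The groups did not overlap for any of the 9, which also held for 92.9% of all genes. The median over the members was -1.31, beside -1.10 over all genes. The 3 that rose stayed positive relative to the median gene, at 1.47 to 2.69, while Steap3, Ncoa4, Ireb2 and Aco1 were 0.58 to 1.60 below it and Slc11a2 and Slc25a37 within 0.21 of it. Quantile normalization left smaller falls that still passed for Ireb2 and, at log2 fold changes of -0.79, -0.69, -0.46 and -0.42, for Aco1, Slc25a37, Steap3 and Ncoa4. The uptake genes did not move together, since Tfrc rose, Steap3 fell and Slc11a2 fell by nearly the drop of the median gene. The marker lists given above moved in the same comparison, and their part in it was not tested.

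In C vs. B, which asks what TCA adds to Cu/ES, 3 members rose (Tfrc, Slc11a2 and Ireb2) and 2 fell (Fth1 and Ftl1). Across all genes 20.4% rose and 23.6% fell. No member went past both thresholds, as 2.29% of all genes did. Of the genes whose hairpins are printed above, Tfrc and Slc11a2 (3' UTR) rose, Fth1 and Ftl1 (5' UTR) fell, the latter with the lost calls given above, and Slc40a1 (5' UTR) was too low to test. No test of hairpin position against direction was run, and the Slc11a2 hairpin is the loose match. In B vs. A, as deposited, Tfrc (3' UTR) rose and Slc11a2 (3' UTR) fell, while Fth1 and Ftl1 (5' UTR) rose. Slc11a2 regained 0.80 of the 1.31 log2 units by which it was lower in group B as deposited, whereas with median-ratio scaling its rise was 0.90 beside a B vs. A value of -0.16 that did not pass. Fth1 lost 0.47 of its 1.16, and the Tfrc rises in B vs. A and C vs. B were of like size (0.37 and 0.36). Group C and group B libraries did not overlap for 6 of the 9, and for 49.2% of all genes. The log2 ratio of Tfrc to Fth1 within libraries rose from -5.86 ± 0.10 to -5.04 ± 0.31, a difference of 0.82 without overlap (exact permutation p = 0.1), with C library 2 at the low end of its group. That library was also the lowest of group C for Slc11a2 and Slc25a37 and the highest for Fth1 and Ftl1.

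Few members were called with TCA alone. In D vs. A no member rose (10.5% of all genes rose) and 2 fell, Steap3 and Ftl1 (11.5% fell). None of the 9 went past both thresholds, as 0.217% of genes did. Groups did not overlap for 4 of 9 members, Slc11a2, Steap3, Fth1 and Ftl1, and for 44.2% of all genes. B vs. A and D vs. A share the group A libraries, and B vs. A and C vs. B share those of group B, so their values are not independent of each other.

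Cu/ES in the presence of TCA moved the 9 members in the same directions as without it. In C vs. D, Tfrc (0.58 ± 0.10), Fth1 (0.53 ± 0.09) and Ftl1 (1.66 ± 0.12) rose, beside 20.9% of all genes. The 6 that fell, beside 71.5% of all genes, were Slc11a2 (-0.71 ± 0.13), Steap3 (-0.91 ± 0.09), Slc25a37 (-1.10 ± 0.09), Ncoa4 (-1.90 ± 0.10), Ireb2 (-2.28 ± 0.08) and Aco1 (-2.47 ± 0.09), with adjusted p-values of at most 1.04e-04 for all 9. Relative to the median gene, Slc11a2 was 0.41 higher, and with median-ratio scaling its log2 fold change turned to 0.54 (adjusted p = 8.28e-04). Slc25a37 turned to 0.25 with that scaling (adjusted p = 0.0115), and quantile normalization turned Fth1 to -0.31 and Steap3 to 0.28. The Steap3 call was lost with limma-voom on median-ratio size factors (-0.55, adjusted p = 0.0735). Past both thresholds were Ftl1 among the higher (11.2% of all genes) and 4 of the lower (53.3%), and none of the 9 overlapped, as for 92.0% of all genes.

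An interaction term asked whether TCA acted differently in cells with Cu/ES and in cells without. The difference, (C minus B) minus (D minus A), was positive for Steap3 (0.77 ± 0.13, adjusted p = 5.47e-04), Slc11a2 (0.60 ± 0.18, adjusted p = 0.019) and Ireb2 (0.42 ± 0.11, adjusted p = 0.00821). It was negative for Fth1 (-0.63 ± 0.13, adjusted p = 0.00214) and Aco1 (-0.44 ± 0.13, adjusted p = 0.019). Among all genes 17.7% were positive and 19.8% negative, and 3.49% went past both thresholds, none of them a member. For Steap3, TCA lowered the mRNA in cells without Cu/ES and gave no call in cells with it. Tfrc did not pass (0.21 ± 0.14, adjusted p = 0.244) but did so without D library 2, the high one (0.34, adjusted p = 0.0263). The Slc11a2 call was lost without C library 3 (0.52, adjusted p = 0.0508) and the Aco1 call without A library 1 (-0.40, adjusted p = 0.0532), both close to the threshold. With no filter on low values the Slc11a2 adjusted p was 0.0627, and with TPM scaling that of Aco1 was 0.0549.

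**Figure D3:**
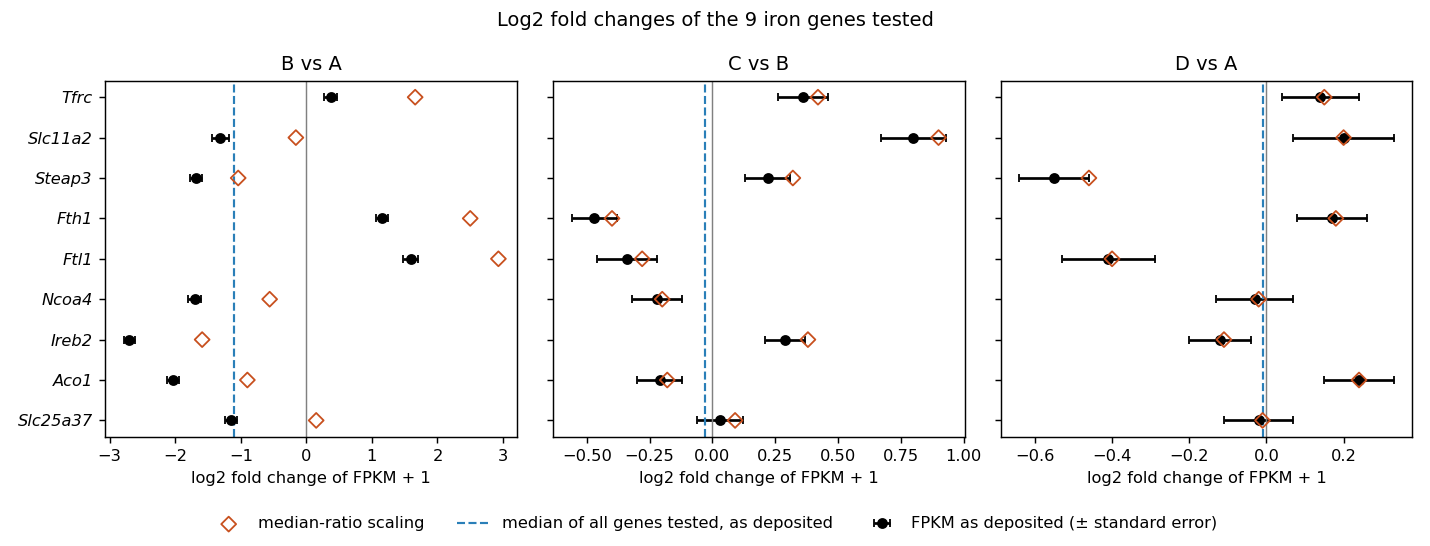
Log2 fold changes of FPKM + 1 for the 9 iron genes tested, in the comparisons of B with A, C with B and D with A, with standard errors (black points, FPKM as deposited), the same after median-ratio scaling (open diamonds) and the median of all genes tested (dashed line), each panel with its own axis. In B vs. A the scaling moves all 9 to the right and leaves Slc25a37 at 0.15 and Slc11a2 at -0.16, while in the other panels it moves each by at most 0.10.

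Beyond these 10 genes, 49 further genes of iron and heme metabolism were listed, of which 34 could be tested. In B vs. A 8 of the 34 rose and 26 fell, beside 20.1% and 72.0% of all genes, and 3 and 21 of them went past both thresholds, beside 10.1% and 53.0%. Their median was -1.55 beside -1.10 over all genes. Median-ratio scaling turned the sign of 5 of these, leaving 12 higher and 20 lower. In C vs. B 4 rose and 10 fell, beside 20.4% and 23.6% of all genes, and in D vs. A 2 rose and 2 fell, beside 10.5% and 11.5%, none past both thresholds in either. The numbers called depended on the processing, at 8 to 15 in C vs. B and 1 to 11 in D vs. A over the alternatives tried, with 11 under quantile normalization.

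Among the 8 other uptake genes tested, 7 fell in B vs. A, all past both thresholds, as 53.0% of all genes did, and Snx3, which recycles the transferrin receptor, rose (0.49 ± 0.07). The deepest falls were those of the metalloreductase gene Steap2 (-2.76 ± 0.08), of Lcn2, which encodes an iron-siderophore carrier (-2.73 ± 0.21), and of Exoc6, an exocyst subunit needed for transferrin cycling (-2.25 ± 0.10). The zinc and iron transporter gene Slc39a14, chosen after its values were seen, fell as well (-1.92 ± 0.12) and then rose in C vs. B (0.39 ± 0.12, adjusted p = 0.0199), so that with Tfrc and Slc11a2 it was the third uptake gene to rise there. Unlike those of Tfrc and Slc11a2, its group B and C libraries overlapped, at 2.48 to 3.44 and 3.32 to 4.79 FPKM. Lcn2 (-0.73), Steap1 (-0.56) and Exoc6 (-0.26, adjusted p = 0.0469) fell in that comparison, the last without a call under TPM scaling (-0.22, adjusted p = 0.103) or quantile normalization (-0.26, adjusted p = 0.0672).

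Among storage genes, the iron chaperone gene Pcbp2 fell (-1.36 ± 0.05, adjusted p = 5.46e-12), though only 0.26 below the median gene and to no call with median-ratio scaling (-0.03, adjusted p = 0.684). Its paralog Pcbp1 and the ubiquitin ligase gene Herc2 rose by 0.15 and 0.31, and with TPM scaling neither kept that sign (-0.22 and -0.02). Of the export genes, Flvcr1, a choline and heme transporter gene, rose from 4.84 to 5.16 FPKM in group A to 23.3 to 24.9 in group B (2.06 ± 0.07, adjusted p = 2.12e-12) and was higher again in C vs. B (0.22, adjusted p = 0.0228) and D vs. A (0.44, adjusted p = 0.00106). Cp, the ferroxidase ceruloplasmin that works with ferroportin and carries copper, fell (-2.25 ± 0.35, adjusted p = 2.69e-05) and fell further in C vs. B (-0.96, adjusted p = 0.0397), a call lost with TPM scaling (-0.88, adjusted p = 0.0598) and quantile normalization (-0.91, adjusted p = 0.0952). Its values in library 2 of groups A, B and D, at 32.6, 5.04 and 24.9 FPKM, were above those of the other libraries of the same group, the next highest being 15.1, 2.72 and 9.57.

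Both other sensing genes fell: Epas1, an oxygen-regulated factor whose mRNA is also a target of iron regulatory proteins (-2.70 ± 0.12), and Fbxl5, which marks the Ireb2 protein for degradation (-2.01 ± 0.10). All 4 sensing genes were thus lower in B vs. A, where 72.0% of all genes were, and each stayed lower with median-ratio scaling. Of the systemic regulators only Hfe, Bmp6 and Neo1 were high enough to test, and Hamp, which encodes hepcidin, the liver hormone that closes ferroportin, was not. Hfe fell (-1.82 ± 0.12). The mitochondrial genes Slc25a28 (-2.55 ± 0.11) and Abcb10 (-1.42 ± 0.08) fell too, and quantile normalization took the call from Abcb10 (-0.16, adjusted p = 0.118).

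The heme group held the largest change of the list. Hmox1, the inducible heme oxygenase that frees iron from heme, went from 32.5, 21.1 and 32.2 FPKM in group A to 2538, 2954 and 2587 in group B, was at 1528, 1767 and 1515 in group C and stayed at 32.6, 23.1 and 31.7 in group D. It rose by 6.53 ± 0.15 in B vs. A (adjusted p = 1.17e-13) and fell by 0.75 in C vs. B (adjusted p = 0.00149). Blvrb, a biliverdin reductase gene of the next step, rose by 2.76 ± 0.09 in B vs. A and fell by 0.37 in C vs. B (adjusted p = 0.00506). The other biliverdin reductase gene, Blvra, fell in B vs. A (-2.62 ± 0.12, adjusted p = 4.68e-11). It also fell with median-ratio scaling (-1.51, adjusted p = 2.33e-07). The constitutive heme oxygenase gene Hmox2 fell by 2.99 in B vs. A (SE 0.09, adjusted p = 4.41e-13). Of the genes of heme synthesis, Alas1, the first and rate-limiting enzyme, rose in C vs. B (0.71 ± 0.07, adjusted p = 5.42e-06).

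**Figure D4:**
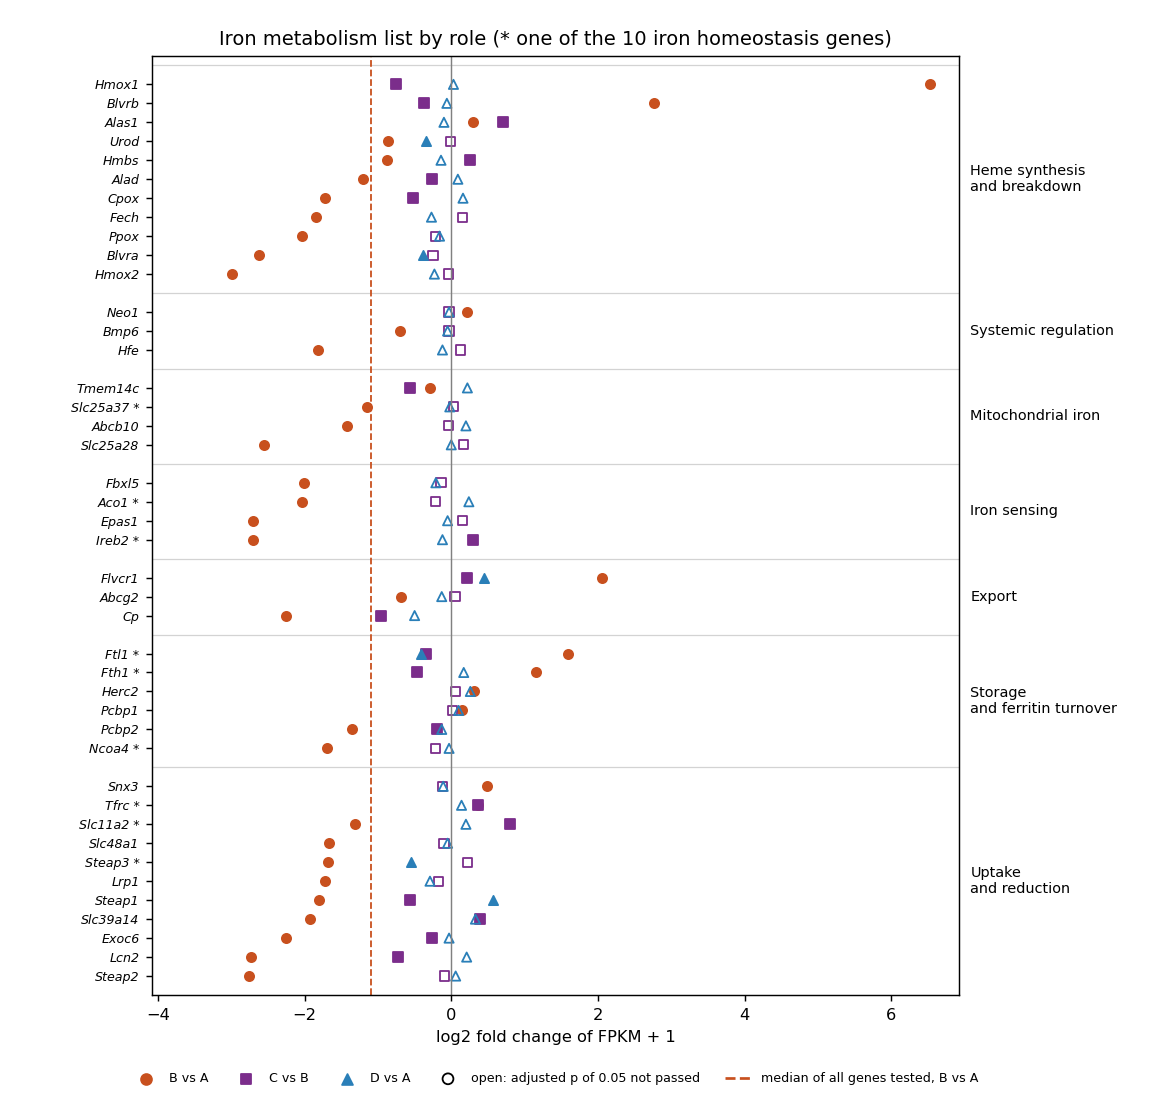
Log2 fold changes of FPKM + 1 of 42 of the 43 genes of the iron list that could be tested, grouped by role, with circles for B vs. A, squares for C vs. B and triangles for D vs. A, filled where the adjusted p was under 0.05, with the B vs. A median of all genes as a dashed line. Hmox1 lies farthest to the right at 6.53, followed by Blvrb at 2.76 and Flvcr1 at 2.06, and most circles lie to the left of 0.

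The genes most like each member over the 12 libraries were sought among 6878 genes (mean FPKM of 5 or more), by the Euclidean distance between profiles of log2(FPKM + 1) centred on group A. Nearest to Fth1 were Tmem208 (distance 0.27), Nme1 (0.28) and Skp1 (0.31), and nearest to Ftl1 were Serpinb9b (0.54), Atp6v1d (0.64) and St13 (0.69). Slc11a2 lay closest to Slc2a5 (0.41), with means of 26.8 FPKM in A, 9.40 in B, 17.1 in C and 31.4 in D. Tfrc lay closest to Cpsf7 (0.33), with 23.7, 29.9, 38.8 and 25.7. Ireb2 had Cnep1r1 (0.28) as its neighbour, Aco1 Trmt2a (0.29), Ncoa4 Trp53bp1 (0.27), Slc25a37 Edem1 (0.24) and Steap3 Impa2 (0.48). For Slc40a1, which is flattened by the pseudocount, it was Tpp1 (0.35). These distances describe likeness in 4 conditions and nothing more.

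Promoter windows of RefSeq (build GRCm38.p6, 250 bases before to 50 after a start) were held for 7 of the 10 genes, 14 windows in all. The antioxidant response element core TGACNNNGC, searched on both strands, was in 1 of the 14, that of Ncoa4, and in 12.4% of the 32851 windows of all genes. The metal response element core, TGCACNC or TGCGCNC, was in windows of Aco1, Ncoa4 and Tfrc (25.7% of all windows), and the heat shock repeats TTCNNGAA or GAANNTTC were in 1 window, of Aco1 (15.1%). Neither ferritin gene had any of these letters in its windows, which says nothing of sequence farther away.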

How the data were processed

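AML12 cells in 4 groups of 3 libraries were analysed. The authors deposited FPKM for 24824 genes by symbol, with replicates apart. Their processing notes name fastp, HISAT2, HTSeq and build GRCm39, without versions or strand settings. All columns of values were used.

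Here log2(FPKM + 1) was fitted with limma 3.58.1 in R 4.3.3 for the 10615 genes that averaged at least 1 FPKM, in one model of the 4 groups over 12 libraries with a mean-variance trend (8 residual degrees of freedom). The study's own count test was not run; limma-voom on recovered reads was the alternative that used counts. Two-sided p-values were adjusted over all genes tested (Benjamini-Hochberg). "Rose" and "fell" mean an adjusted p under 0.05, and "past both thresholds" adds an absolute log2 fold change above 1. The interaction was (C minus B) minus (D minus A). Ratios used exact permutation tests.

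Reads were recovered from the spacing of FPKM: for 22210 of 22212 genes above 0 in at least 2 libraries, values were whole reads in every library (tolerance 0.002 reads plus 1e-07 per read). They sum to 99.98% or more of each library's total. The precision they give covers counting error only. The limma fit was tested on simulated data, and the recovery of reads was not. In that simulation few genes changed, as many up as down. It therefore does not cover a shift of the whole table such as that in B vs. A.

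Members and lists were chosen with earlier results of these data known. Named are all members and, per role of the wider list, the 3 largest changes past both thresholds in B vs. A. Outside this rule, Snx3, Slc39a14, Steap1, Pcbp1, Herc2, Alas1, Blvra and the marker genes were named after their values were seen. Of the genes this rule names, 1 is not reported here. Libraries carry replicate numbers in the labels. Deviations from group means of same-numbered libraries of groups A and B correlated at 0.173, 0.174 and 0.142. This meets the rule for pairing (every r above 0.1), while the other comparisons did not meet it. For groups A and D the values were 0.087, 0.579 and 0.302, and for groups B and C 0.277, 0.243 and 0.005. The highest was thus between groups A and D. The alternatives tried were a pseudocount of 0.1, dropping or tightening the filter on low values, scaling by TPM, by median ratio or by quantiles, a replicate block, no trend, only the groups compared, each library left out, and limma-voom on recovered reads. Tables and plots were made with Python 3.11.15 (matplotlib 3.10.9, numpy 2.4.6, pandas 2.3.3, scipy 1.17.1). Sequences came from GENCODE M21 and RefSeq.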

Additional observations from a re-analysis of the deposited data

Results flagged for a closer look

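For 5 of the 9 members tested the effect of TCA differed between cells with and without Cu/ES by the interaction test of limma. Among all genes tested 17.7% were positive and 19.8% negative by that test. The difference of log2 fold changes was 0.77 for Steap3, 0.60 for Slc11a2 and 0.42 for Ireb2, and it was -0.63 for Fth1 and -0.44 for Aco1. Within these, Slc11a2 was higher in all 3 libraries of group C than in any of group B, and Fth1 was lower in all 3. Groups C and B did not overlap for 49.2% of all genes. The TCA effect without Cu/ES on Slc11a2 and Fth1, 0.20 and 0.17, did not pass. The interaction calls of Slc11a2 and Aco1 were lost in some alternatives, as given above.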

How the results depend on the processing

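The 45 member values were set against 805 alternative fits. Of these, 761 kept the side of the threshold and, for called values, the direction. Another 25 lost the call, 10 gained one and 9 turned the sign of a called value. Values without a call could turn sign and still count as kept. Slc25a37 did so in C vs. B (0.03, and -0.03 with 1 library left out). In B vs. A, Slc25a37 turned to 0.15 with median-ratio scaling and to 0.15 with limma-voom on median-ratio size factors. In C vs. D these gave Slc25a37 0.25 and 0.25, and Slc11a2 0.54 and 0.59. Quantile normalization gave Slc11a2 0.44, Steap3 0.28 and Fth1 -0.31. Genes past both thresholds numbered 6692 in B vs. A, 243 in C vs. B, 23 in D vs. A, 6851 in C vs. D and 370 for the interaction. A stricter filter on low values tested fewer genes and gave 4089 in B vs. A, 4280 in C vs. D and 14 in D vs. A. A pseudocount of 0.1 gave 703 in C vs. B, 95 in D vs. A and 878 for the interaction, limma-voom 780, 104 and 874, and with median-ratio size factors 784, 106 and 888. Quantile normalization gave 154 in C vs. B. The members called in D vs. A were 2, 1 with no filter, with the stricter filter or with median-ratio scaling, and 4 with quantile normalization. Leaving out 1 library gave 1 to 2 of them, and 22 to 33 genes past both thresholds in D vs. A, 205 to 352 in C vs. B, 6671 to 6704 in B vs. A, 6804 to 6888 in C vs. D and 340 to 521 for the interaction. For these shifts the cause was not tested. A replicate block gave 6692 genes past both thresholds in B vs. A and 375 for the interaction, and the block changed no call of a member. Depth limits Slc40a1 and, in groups B and C, Steap3.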

Other observations

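Outside the comparisons above, 2 listed iron genes below the filter were near 0 without Cu/ES and not with it. Hephl1, a ferroxidase gene related to Cp, held at most 4 reads in a library of groups A and D, but 93 to 126 with Cu/ES and 93 to 188 with Cu/ES and TCA. Trf, which encodes transferrin, held 0 or 1 read in libraries of groups A and D, 30 to 67 with Cu/ES and 22 to 69 with Cu/ES and TCA. The highest values were 1.11 FPKM for Hephl1 and 0.898 for Trf. Slc39a8, an uptake gene of the list below the filter, held 0 to 2 reads in libraries of group A and 0 to 5 in D. It held 5 to 9 in B and 25 to 53 in C. These genes were named after their values were seen. In the fit without a filter on low values, 3837 of 24824 genes rose in B vs. A. The share of all genes with such a pattern of reads was not counted. For B vs. A the exact permutation test on log2(FPKM + 1) gave p = 0.1 for each, the smallest that 3 against 3 libraries allow.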
